A study of Mus musculus with 10 samples.

Results

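Transcript levels of Esrrb and 7 other nuclear receptor genes, namely Esrra, Nr0b1, Nr5a2, Nr6a1, Rarg, Nr1h2 and Nr2c2, were followed through 5 sorted fractions of mouse embryonic stem (ES) cells. The genes were taken by symbol, and each of the 8 had 1 row among the 32361 rows of the expression table. All fractions came from the E14Tg2a.4 ES cell line. One derivative carried knock-in fluorescent reporters at both Esrrb and Tbx3 and was sorted into cells negative for both (Esrrb-/Tbx3-), cells with the Esrrb signal alone (Esrrb+/Tbx3-) and cells with both signals (Esrrb+/Tbx3+). Another carried a piggyBac transgene in which a fragment of the Zscan4c promoter drives the reporter, and was sorted into Zscan4+ and Zscan4- cells. Per the labels, every fraction had 2 libraries, 10 in all, and per the series' design text replicates were taken on different days. The labels do not say whether either line was 1 clone. The table holds 1 merged value for each gene and fraction, in FPKM (fragments per kilobase of transcript, scaled by the mapped fragments). None of the values below therefore has an SD or a p-value, and the depth of sequencing is unknown. For the same reason it cannot be said which neighbouring levels differ by more than the spread between libraries.

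Nuclear receptors are transcription factors with a zinc-finger DNA-binding domain and a ligand-binding domain, and many of them recognise the sequence AGGTCA alone or as a repeat. ESRRB and NR5A2 bind as monomers to an extended form of that sequence, with no ligand needed for activity. In ES cells ESRRB is a factor of the naive pluripotency network: NANOG activates its gene, TCF7L1 represses it, and NCOA3 serves as its coactivator. NR0B1 (DAX1) has a ligand-binding-type domain but lacks the zinc fingers, and acts mostly as a corepressor of partners that include ESRRB and NR5A2. Orphan receptor is not an apt name for every gene here, since RARG is a receptor for retinoic acid and NR1H2 (LXR beta) a receptor for oxysterols.

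The promoters of Esrrb, Nr0b1 and Nr5a2 are printed because these 3 genes had the largest differences between fractions in the set. Each is the 250 bases before the annotated start that coincides with the edge of the gene's row, read 5′ to 3′ on the gene's strand, from RefSeq on GRCm38.p6 (mm10). They lie at chr12:86360867-86361116 on the plus strand for Esrrb, chrX:86191525-86191774 on the plus strand for Nr0b1 and chr1:136960449-136960698 on the minus strand for Nr5a2. Capitals mark AGGTCA on the strand shown or on the other strand.
Esrrb: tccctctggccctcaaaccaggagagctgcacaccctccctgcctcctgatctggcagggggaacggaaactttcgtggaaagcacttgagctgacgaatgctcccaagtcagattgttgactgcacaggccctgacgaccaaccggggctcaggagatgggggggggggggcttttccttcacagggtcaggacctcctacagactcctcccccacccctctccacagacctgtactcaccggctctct
Nr0b1: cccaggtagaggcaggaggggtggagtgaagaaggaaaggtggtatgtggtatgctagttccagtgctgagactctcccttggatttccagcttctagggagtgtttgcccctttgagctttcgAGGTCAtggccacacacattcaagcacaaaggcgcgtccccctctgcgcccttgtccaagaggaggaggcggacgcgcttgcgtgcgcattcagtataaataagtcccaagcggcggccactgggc
Nr5a2: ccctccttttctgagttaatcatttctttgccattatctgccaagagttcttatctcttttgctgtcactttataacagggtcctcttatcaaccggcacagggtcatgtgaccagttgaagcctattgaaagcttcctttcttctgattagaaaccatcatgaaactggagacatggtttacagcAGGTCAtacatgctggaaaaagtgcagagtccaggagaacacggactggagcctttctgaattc
The Nr0b1 promoter holds 1 AGGTCA, which begins at position -126 from the start, and the Nr5a2 promoter holds 1 at position -64. The Esrrb promoter holds none. AGGTCA was found on either strand in 14.02% of the 32851 promoter windows in the RefSeq table and in 4 of the 12 windows of the 8 genes, which are those of Nr0b1, Nr5a2, Rarg and a later start of Nr6a1. The longer AAGGTCA, which contains AGGTCA, was in 4.08% of all windows and in 1 of the 12, the same Nr6a1 window. TCAAGGTCA, the extended site of the estrogen-related receptors, contains both and was in 0.387% of all windows and in none of the 12. These matches describe the letters in the windows and not binding. The GC content was 60.8% for Esrrb, 57.2% for Nr0b1 and 43.2% for Nr5a2, against a median of 52.4% over all windows.

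ES cell markers were high in every column, with a summed level of Pou5f1, Sox2, Nanog, Zfp42 and Sall4 of 2438 FPKM in Esrrb-/Tbx3-, 3330 in Esrrb+/Tbx3- and 4270 in Esrrb+/Tbx3+ cells. They summed to 3966 FPKM in Zscan4+ and 3890 in Zscan4- cells. Markers of other cells were also present. The 13 fibroblast markers summed to 1977 FPKM in Esrrb-/Tbx3- and 1401 in Esrrb+/Tbx3- cells, but to 32.8, 37.5 and 25.8 FPKM in Esrrb+/Tbx3+, Zscan4+ and Zscan4- cells. The 12 T-lineage markers summed to 574, 409, 35.8, 22.2 and 25.04 FPKM in the same order. Of these 2 lists, 11 of 13 and 11 of 12 genes reached 1 FPKM in some fraction, and Dcn, Lum and Cd4 did not, although none of them was at 0 everywhere. The 6 2-cell-like markers summed to 297 FPKM in Zscan4+ cells and to no more than 2.19 FPKM elsewhere. In sorted bulk RNA such as this, fewer cells of a type and less RNA per cell cannot be told apart.

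Differences are given as log2(FPKM + 1) of one fraction minus that of another, a scale that understates differences of low genes, with 2-fold as the size from which a gene counts as higher or lower. All 8 receptor genes were among the 13595 rows that reached 1 FPKM in some fraction and were compared. The shares of all rows past 2-fold, given with each comparison below, are also the background for the gene lists.

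Esrrb+/Tbx3- cells were set against Esrrb-/Tbx3- cells, which asks what goes with the Esrrb reporter while the Tbx3 reporter is off. Nr0b1 and Nr5a2 were higher, Esrrb was higher as the sort requires, and the other 5 receptor genes lay close to no difference. In all, 3 of 8 were at least 2-fold higher, against 1.82% of all rows, a count that includes Esrrb, whose call the sort fixed. None, 0 of 8, was at least 2-fold lower, against 1.43% of all rows. The median of the 8 differences was 0.04, against -0.02 for all rows. Markers of the primed epiblast moved with this step in the other direction: of Fgf5, Pou3f1, Otx2, Dnmt3b and Sox3, 4 of 5 were at least 2-fold lower in Esrrb+/Tbx3- cells, with a median of -1.97. The 5 markers summed to 265 FPKM in Esrrb-/Tbx3-, 94.9 in Esrrb+/Tbx3- and 95.3 in Esrrb+/Tbx3+ cells, and to 100.1 in Zscan4+ and 158 in Zscan4- cells. Their part in the receptor differences was not tested.

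Esrrb, whose reporter defined the gate, was at 43.3 FPKM in Esrrb-/Tbx3-, 177 in Esrrb+/Tbx3- and 243 in Esrrb+/Tbx3+ cells, and at 233 in Zscan4+ and 203 in Zscan4- cells. Esrrb-/Tbx3- cells thus still had a measurable level of Esrrb RNA. Its differences from Esrrb-/Tbx3- cells in that line follow from the gate and are a check of the labels. Esrrb+/Tbx3- and Esrrb+/Tbx3+ cells were both gated as Esrrb+, so the difference between them (0.46) does not follow from that gate. The row spans chromosome 12 from 86361117 to 86521628 (mm10, plus strand) and merges 4 annotated transcripts.

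Nr0b1, the corepressor gene on chromosome X (86191775 to 86195944, plus strand), was at 32.0 FPKM in Esrrb-/Tbx3-, 109 in Esrrb+/Tbx3- and 174 in Esrrb+/Tbx3+ cells, and at 144 in Zscan4+ and 122 in Zscan4- cells. It had its highest level in Esrrb+/Tbx3+ and its lowest in Esrrb-/Tbx3- cells, and the order of the 5 fractions was the same as for Esrrb. It was 3.40-fold higher in Esrrb+/Tbx3- than in Esrrb-/Tbx3- cells, a difference of 1.74 on the log2 scale, and 59 of the 13595 rows (0.434%) had a larger one.

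Nr5a2, which encodes LRH-1, a factor that maintains Pou5f1 expression in the mouse epiblast, lies on chromosome 1 (136843584 to 136960448, minus strand). It was at 5.76 FPKM in Esrrb-/Tbx3-, 22.4 in Esrrb+/Tbx3- and 26.6 in Esrrb+/Tbx3+ cells, and at 26.9 in Zscan4+ and 21.3 in Zscan4- cells. The Esrrb-/Tbx3- level stood apart and the other 4 lay within a narrow band. The gene was 3.89-fold higher in Esrrb+/Tbx3- than in Esrrb-/Tbx3- cells (1.79), and 52 rows (0.382%) had a larger difference. In the same comparison Pou5f1, a factor of naive and primed cells alike, differed by 0.14.

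**Figure D1:**
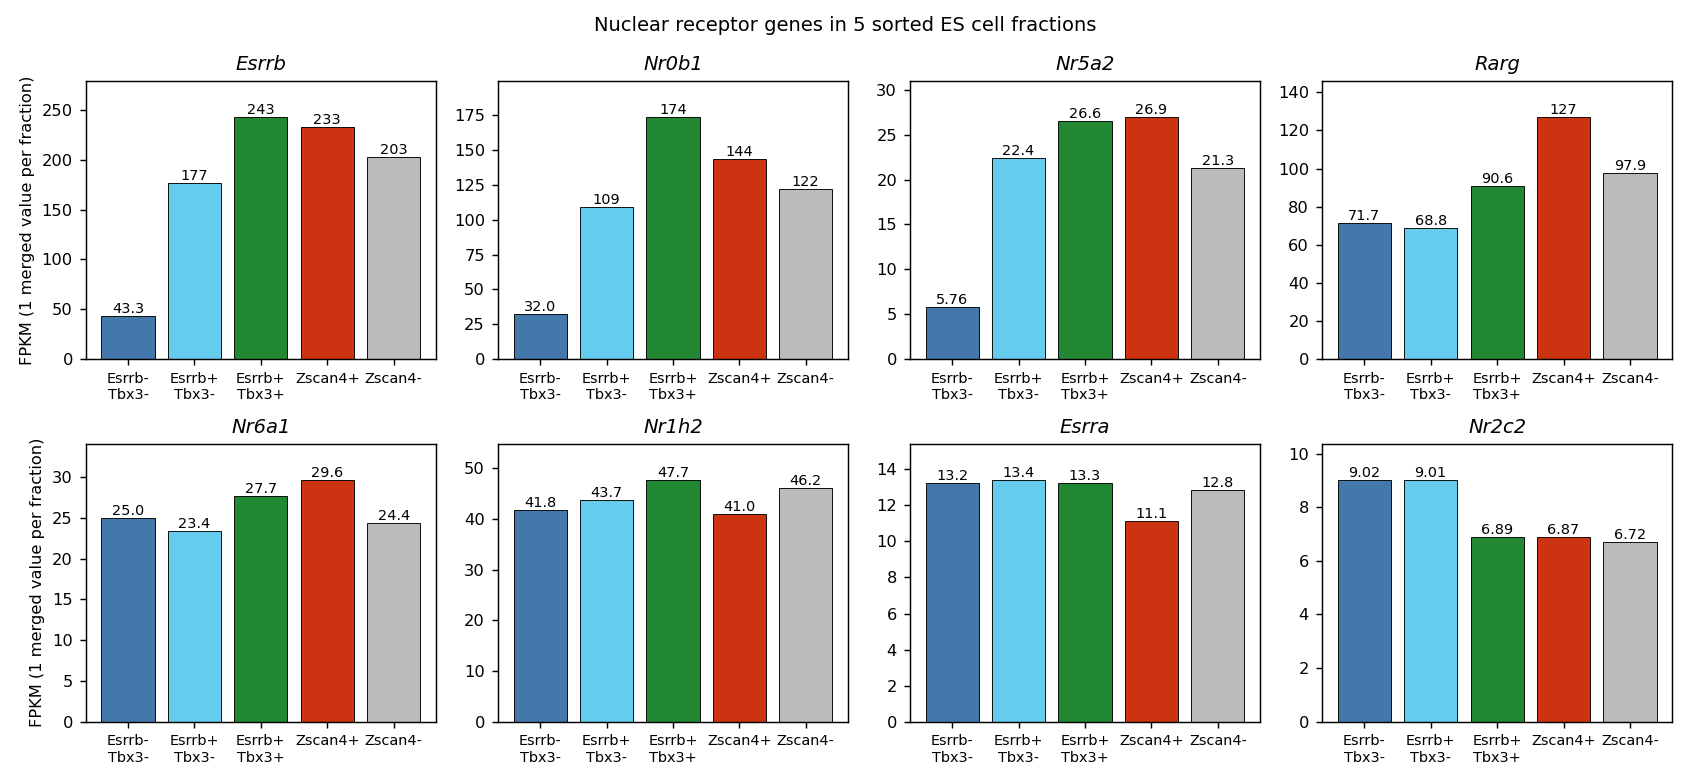
FPKM of the 8 receptor genes (vertical axes, each from 0, with its own scale) in the 5 sorted fractions, 1 bar for the merged value of each fraction, with no error available. Esrrb, Nr0b1 and Nr5a2 are lowest in Esrrb-/Tbx3- cells, at 43.3, 32.0 and 5.76 FPKM, while Nr1h2 and Esrra differ little between bars.

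The proportions of the 3 genes varied less than their levels. The highest level over the 5 fractions was 5.61 times the lowest for Esrrb, 5.42 times for Nr0b1 and 4.68 times for Nr5a2. The level of Esrrb divided by that of Nr0b1 nevertheless ran only between 1.35 in Esrrb-/Tbx3- and 1.66 in Zscan4- cells, and Esrrb divided by Nr5a2 between 7.51 and 9.54 in the same fractions. Nr0b1 divided by Nr5a2 ran between 4.87 in Esrrb+/Tbx3- and 6.53 in Esrrb+/Tbx3+ cells. By contrast Esrrb divided by Esrra, its closest relative in the set, ran between 3.27 in Esrrb-/Tbx3- and 20.97 in Zscan4+ cells. That ratio mostly repeats the Esrrb level, because Esrra itself ran only from 11.1 to 13.4 FPKM. Among the 9127 rows that averaged 5 FPKM or more over the fractions, the median of highest over lowest level was 1.39, and 4.05%, 4.22% and 4.86% of them exceeded Esrrb, Nr0b1 and Nr5a2.

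Esrra, which encodes a regulator of mitochondrial energy metabolism that works with PGC-1 coactivators, differed little between the Esrrb and Tbx3 fractions. It was at 13.2 FPKM in Esrrb-/Tbx3-, 13.4 in Esrrb+/Tbx3- and 13.3 in Esrrb+/Tbx3+ cells, and at 11.1 in Zscan4+ and 12.8 in Zscan4- cells. Its highest level was 1.21 times its lowest, and 80.1% of rows exceeded that. In the table its row has the same span as that of Trmt112, at 17.9 to 19.9 FPKM. The annotation places Esrra at 6910977 to 6921813 on chromosome 19 (minus strand, GENCODE M21), and reads of overlapping genes may not be fully separable because the sources do not say whether counting used strand.

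Rarg, the predominant retinoic acid receptor gene here, was at 71.7 FPKM in Esrrb-/Tbx3-, 68.8 in Esrrb+/Tbx3- and 90.6 in Esrrb+/Tbx3+ cells, and at 127 in Zscan4+ and 97.9 in Zscan4- cells. The 2 lowest levels were those of the Esrrb-/Tbx3- and Esrrb+/Tbx3- columns, the columns that also hold the fibroblast and T-lineage markers, whose part in this was not tested. Rarg differed by -0.06 between Esrrb+/Tbx3- and Esrrb-/Tbx3- cells. It lies on chromosome 15 (102234938 to 102257522, minus strand).

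Nr6a1, which encodes GCNF, a repressor of Pou5f1 during differentiation, was at 24.98 FPKM in Esrrb-/Tbx3-, 23.4 in Esrrb+/Tbx3- and 27.7 in Esrrb+/Tbx3+ cells, and at 29.6 in Zscan4+ and 24.4 in Zscan4- cells. The spread over fractions was small, with a highest level 1.27 times the lowest, and 69.0% of rows exceeded it. The row lies on chromosome 2 (38723374 to 38926503, minus strand).

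Nr1h2, which encodes LXR beta (chromosome 7, 44549616 to 44553951, minus strand, GENCODE M21), was at 41.8 FPKM in Esrrb-/Tbx3-, 43.7 in Esrrb+/Tbx3- and 47.7 in Esrrb+/Tbx3+ cells, and at 41.0 in Zscan4+ and 46.2 in Zscan4- cells. It was the steadiest of the 8, with a highest level 1.16 times the lowest. Its row shares its span on chromosome 7 with AK184603, at 6.21 to 10.4 FPKM.

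Nr2c2, which encodes the testicular receptor TR4 (chromosome 6, 92091390 to 92174294, plus strand, GENCODE M21), was at 9.02 FPKM in Esrrb-/Tbx3-, 9.01 in Esrrb+/Tbx3- and 6.89 in Esrrb+/Tbx3+ cells, and at 6.87 in Zscan4+ and 6.72 in Zscan4- cells. It was the only one of the 8 that was lower in Esrrb+/Tbx3+ than in Esrrb+/Tbx3- cells by more than 0.1 on the log2 scale (-0.34). Its 2 higher columns are again those with fibroblast and T-lineage markers, whose part in this was not tested. Its row shares its span on chromosome 6 with Mrps25, at 10.9 to 12.2 FPKM.

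Cells positive for both reporters were set against Esrrb+/Tbx3- cells, which asks what goes with the Tbx3 reporter once Esrrb is on. None of the 8 receptor genes reached 2-fold, where 0.346% of all rows were higher by that size and 6.94% lower. The median of the 8 was 0.23, against 0.01 for all rows. Nr0b1 had the largest difference, 0.67, with a 1.59-fold higher FPKM, and 152 rows (1.12%) exceeded it. Esrrb itself was higher by 0.46, Rarg by 0.39, Nr5a2 by 0.24, Nr6a1 by 0.23 and Nr1h2 by 0.12, and Esrra differed by -0.01. In the same comparison the 5 ES cell markers were higher by 0.32 to 0.49, with a median of 0.38. The fibroblast markers summed to 32.8 FPKM in Esrrb+/Tbx3+ and 1401 in Esrrb+/Tbx3- cells. The part of either in the receptor differences was not tested.

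Cells positive for both reporters were also set against Esrrb-/Tbx3- cells, the ends of the series, a comparison that shares a column with each of the 2 before it. Nr0b1 and Nr5a2 were at least 2-fold higher, where 3.81% of all rows were, and Esrrb was as well, as the sort requires. In the other direction 0 of 8 were at least 2-fold lower, where 12.2% of all rows were. Nr0b1 differed by 2.40 and Nr5a2 by 2.03, and 0.382% and 0.611% of rows had larger differences. Rarg differed by 0.33, Nr1h2 by 0.19, Nr6a1 by 0.14, Esrra by less than 0.01 and Nr2c2 by -0.34.

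**Figure D2:**
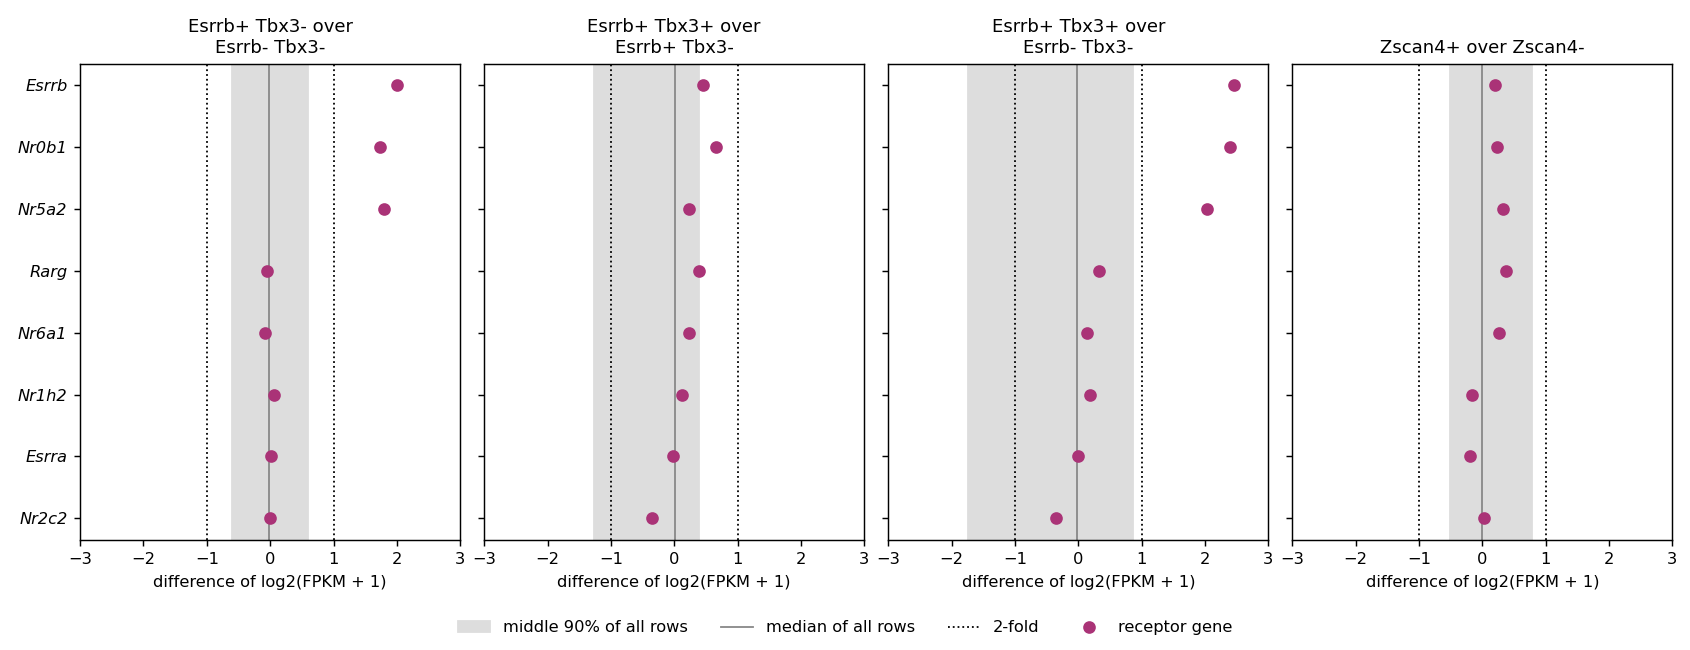
Difference of log2(FPKM + 1) (horizontal axes) for the 8 receptor genes in the 4 comparisons, with the grey band holding the middle 90% of all compared rows, the grey line their median and the dotted lines 2-fold. Esrrb, Nr0b1 and Nr5a2 lie past 2-fold in both comparisons with Esrrb-/Tbx3- cells, and no point does in the other 2 panels.

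Zscan4+ cells were set against Zscan4- cells, which asks what goes with the state marked by the Zscan4c promoter. None of the 8 receptor genes reached 2-fold, where 3.46% of all rows were higher by that size and 0.875% lower. Rarg had the largest difference, 0.37, and 13.6% of rows exceeded it. Nr5a2 differed by 0.33, Nr6a1 by 0.27, Nr0b1 by 0.23, Esrrb by 0.20 and Nr2c2 by 0.03, while Nr1h2 differed by -0.17 and Esrra by -0.19. The median of the 8 was 0.22, against -0.01 for all rows.

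Within the nuclear receptor superfamily, 48 of 49 mouse genes had a row in the table, and Nr2c1 was not analysed here. Since FPKM is per transcript length, levels can be compared between genes. The comparison is rough where a row merges several transcripts or shares its span with another gene. The 48 genes summed to 445 FPKM in Esrrb-/Tbx3-, 653 in Esrrb+/Tbx3- and 802 in Esrrb+/Tbx3+ cells, and to 785 in Zscan4+ and 708 in Zscan4- cells. Without Esrrb, Nr0b1 and Nr5a2 the sums were 364, 345, 359, 381 and 362 FPKM in the same order. Those 3 genes made up 18.2% of the sum in Esrrb-/Tbx3-, 47.2% in Esrrb+/Tbx3- and 55.2% in Esrrb+/Tbx3+ cells. Their share was 51.5% in Zscan4+ and 48.9% in Zscan4- cells. The 3 genes were singled out for their large differences between these same fractions, and the Esrrb reporter defined a gate. The choice of genes thus partly fixed both the change in their share and the narrow range of the remaining sums. Rarg was the most abundant receptor gene in Esrrb-/Tbx3- cells, where Esrrb ranked 2 and Nr0b1 ranked 5. In each of the other 4 fractions the order was Esrrb, Nr0b1, Rarg, Nr1h2 and Rxrb. Nr5a2 ranked 18 of 48 in Esrrb-/Tbx3- and 7 in Esrrb+/Tbx3+ cells.

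**Figure D3:**
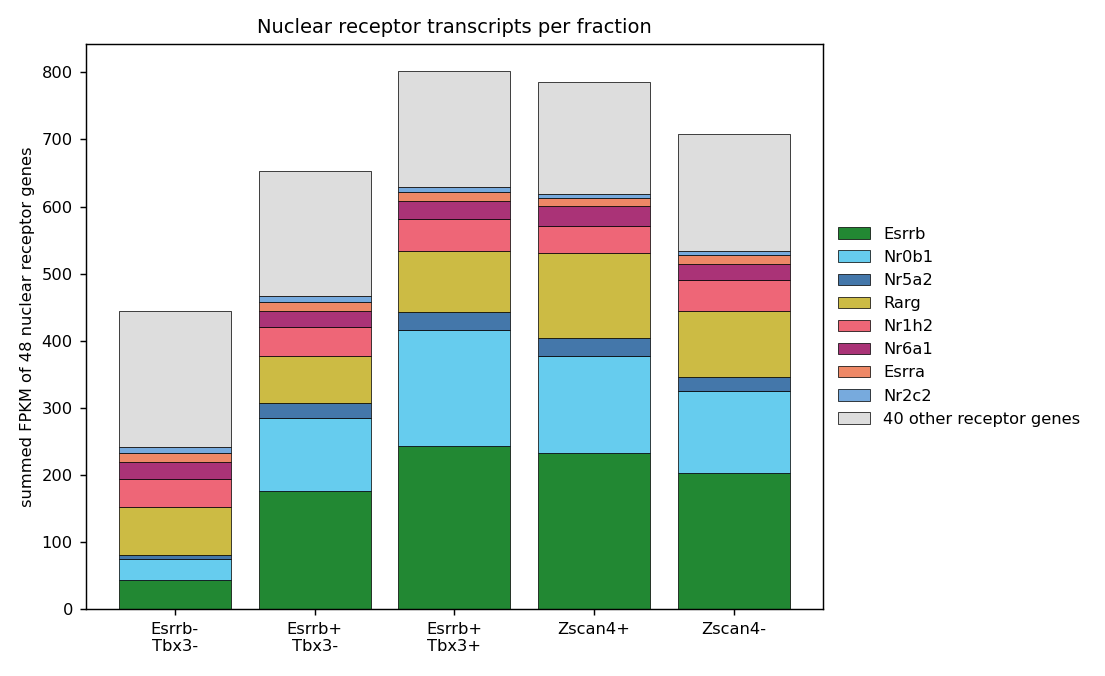
Summed FPKM of 48 nuclear receptor genes (vertical axis, from 0) in each fraction, stacked by gene, with the 40 genes outside the set in grey. The total runs from 445 in Esrrb-/Tbx3- to 802 in Esrrb+/Tbx3+ cells. The green, light blue and dark blue segments at the bottom are Esrrb, Nr0b1 and Nr5a2. Together they make up 18.2% of the total in Esrrb-/Tbx3- and 55.2% in Esrrb+/Tbx3+ cells. These genes were singled out for their large differences between fractions, which partly fixed that change in share.

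Of the 40 other receptor genes, 19 reached 1 FPKM in some fraction. Among the 21 that did not were Esrrg, the third estrogen-related receptor gene, with a highest level of 0.0503 FPKM, and Nr5a1, the relative of Nr5a2, with a highest level of 0.0405 FPKM. Nr1h5 was listed at 0 in every fraction. Between Esrrb+/Tbx3- and Esrrb-/Tbx3- cells 0 of the 19 were at least 2-fold higher and 0 lower, against 1.82% and 1.43% of all rows. The median of the 19 was -0.35. Rxrg had the lowest difference (-0.95, at 0.40 against 1.70 FPKM) and Nr4a1, an immediate early receptor gene, the highest (0.73, at 20.0 against 11.6 FPKM).

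In the Tbx3 comparison 6.94% of all rows were at least 2-fold lower and 0.346% higher. Of the 19, 5 were lower by that size in Esrrb+/Tbx3+ than in Esrrb+/Tbx3- cells, and 0 higher, with a median of -0.43. They were Pparg (-1.95), the adipogenic receptor gene, at 0.25 against 3.81 FPKM, the thyroid hormone receptor gene Thra (-1.19), at 4.29 against 11.1 FPKM, Nr2f2 (-1.12), the vitamin D receptor gene Vdr (-1.06) and, just past the limit, Nr2f1 (-1.001). Nr2f1 and Nr2f2 encode the COUP-TF factors of mesenchyme and nervous system. The row of Thra has the same span as that of Nr1d1, at 10.5 to 11.7 FPKM, so reads of both may not be fully separable. Between Esrrb+/Tbx3+ and Esrrb-/Tbx3- cells the same 5 genes and Nr3c1, the glucocorticoid receptor gene (-1.57, at 2.52 against 9.42 FPKM), were lower, 6 of 19, and 1 was higher, Nr4a1 (1.07, at 25.5 against 11.6 FPKM). Of all rows, 12.2% were lower and 3.81% higher there, and the median of the 19 was -0.80.

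The Esrrb+/Tbx3- level of these 6 lower genes was 0.704 of the Esrrb-/Tbx3- level for Thra, 0.675 for Pparg, 0.660 for Nr2f1, 0.651 for Nr2f2, 0.611 for Nr3c1 and 0.607 for Vdr. For the summed fibroblast and T-lineage markers it was 0.709 and 0.712. The Esrrb+/Tbx3+ level of the 6 genes was between 0.0438 and 0.272 of the Esrrb-/Tbx3- level. A low level there follows from how they were chosen, by being at least 2-fold lower in that comparison. The fibroblast sum was at 0.0166 and the T-lineage sum at 0.0624. The marker sums thus run in the same direction as these 6 genes, which the choice of genes partly fixed, and their part in the differences was not tested. Single T-lineage genes varied. Cd2 was at 4.49 FPKM in Esrrb-/Tbx3-, 5.15 in Esrrb+/Tbx3- and 3.36 in Esrrb+/Tbx3+ cells. Lck made up 20.9 of the 35.8 FPKM of the T-lineage sum in Esrrb+/Tbx3+ cells. Of the 11 T-lineage genes that reached 1 FPKM, 10 were at least 2-fold lower in Esrrb+/Tbx3+ than in Esrrb-/Tbx3- cells. Esrrb, Nr0b1 and Nr5a2 run opposite to the marker sums, with their lowest level in the column where those sums are highest.

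**Figure D4:**
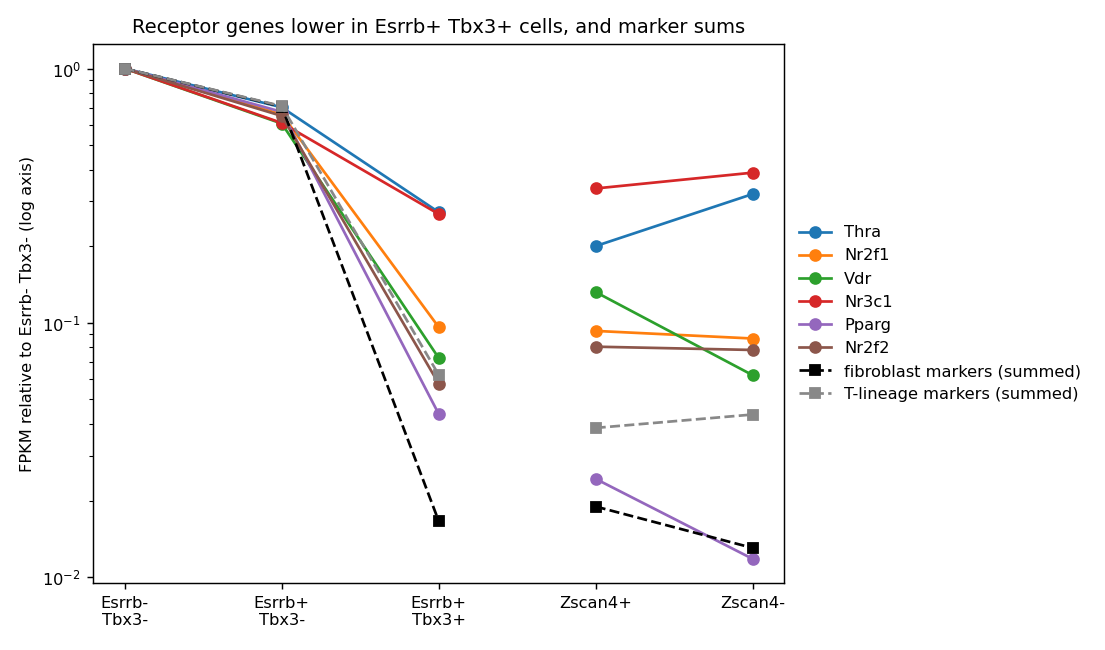
FPKM relative to Esrrb-/Tbx3- cells (vertical log axis) for the 6 nuclear receptor genes at least 2-fold lower in Esrrb+/Tbx3+ than in Esrrb-/Tbx3- cells (circles) and for the summed fibroblast and T-lineage markers (squares, dashed). All lines lie between 0.607 and 0.712 in Esrrb+/Tbx3- cells, and lines are broken between the 2 reporter lines.

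In the Zscan4 sort the 19 other receptor genes had a median of 0.02. Of them, 1 was at least 2-fold higher and 0 lower, against 3.46% and 0.875% of all rows. The higher one was Rxra, which encodes a retinoid X receptor, the dimer partner of RARG and NR1H2. It was at 20.3 FPKM in Zscan4+ and 3.01 FPKM in Zscan4- cells, 6.74-fold higher (2.41), and at 6.52, 4.65 and 3.18 FPKM in Esrrb-/Tbx3-, Esrrb+/Tbx3- and Esrrb+/Tbx3+ cells. Rxrg was at 3.08 against 1.06 FPKM, a ratio of 2.89 in FPKM that falls just under 2-fold on the log2(FPKM + 1) scale (0.98). Rara was at 19.1 against 30.1 FPKM and Rxrb at 38.9 against 43.5.

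Genes of retinoic acid supply and response, which bear on Rarg, were mixed. Of 11 listed, 7 reached 1 FPKM. In the Zscan4 sort 1 was higher, Aldh1a2, which encodes a retinoic acid synthesising enzyme, at 5.96 against 1.07 FPKM (1.75), and 0 were lower. The binding protein gene Crabp1 was at 17.5 against 8.30 FPKM (0.99). Between Esrrb+/Tbx3- and Esrrb-/Tbx3- cells Dhrs3, a retinaldehyde reductase gene, was lower, at 2.53 against 6.62 FPKM (-1.11), and 0 of the 7 were higher by the rule. Aldh1a2 was at 1.28 against 0.34 FPKM there (0.76). Dhrs3 was lower again in Esrrb+/Tbx3+ cells, at 0.39 FPKM (-1.35 against Esrrb+/Tbx3- cells), and it was the only one of the 7 past 2-fold in that comparison. Between Esrrb+/Tbx3+ and Esrrb-/Tbx3- cells Dhrs3 was lower by that rule as well (-2.45), and 0 of the 7 were higher.

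Of 9 LXR target genes, which bear on Nr1h2, 8 reached 1 FPKM. The cholesterol exporter gene Abca1 was at 7.90 FPKM in Esrrb+/Tbx3- against 3.11 FPKM in Esrrb-/Tbx3- cells (1.12), and was the 1 gene past 2-fold there. Abca1 and the apolipoprotein gene Apoe were higher in Esrrb+/Tbx3+ cells, at 9.73 against 3.11 FPKM (1.39) and 1497 against 534 FPKM (1.48). Other targets, such as Srebf1 and Mylip, differed by no more than 0.17 there, Scd2 was at 86.3 against 172 FPKM (-0.99), and the list median was -0.07. No LXR target reached 2-fold in the Tbx3 comparison or in the Zscan4 sort.

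Coregulator genes mostly stayed within 2-fold. Of 12 coactivator genes 10 reached 1 FPKM, and 0 of them reached 2-fold in any of the 4 comparisons. Ncoa3, the coactivator gene linked to ESRRB, was at 28.2 FPKM in Esrrb-/Tbx3-, 37.8 in Esrrb+/Tbx3- and 48.1 in Esrrb+/Tbx3+ cells, and at 54.5 in Zscan4+ and 48.2 in Zscan4- cells. It had the largest difference of the coactivators between Esrrb+/Tbx3+ and Esrrb-/Tbx3- cells, 0.75. The PGC-1 genes, partners of ESRRA, were low, with Ppargc1b at 1.51 to 2.13 FPKM and Ppargc1a under 1 FPKM throughout. Of 10 corepressor genes, 1 reached 2-fold in 1 comparison: Nrip1, at 1.23 FPKM in Esrrb+/Tbx3+ against 4.83 in Esrrb-/Tbx3- cells (-1.39). Its Esrrb+/Tbx3- level was 0.585 of the Esrrb-/Tbx3- level.

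Of 7 regulators and partners of Esrrb, 3 were higher in Esrrb+/Tbx3- than in Esrrb-/Tbx3- cells (Nanog, Klf4 and Tfcp2l1), 4 in Esrrb+/Tbx3+ than in Esrrb-/Tbx3- cells, with Sox2 added (1.06, at 437 against 209 FPKM), and 0 in the Tbx3 comparison. In the Zscan4 sort 1 was higher, Nanog, at 522 against 257 FPKM (1.02). Tcf7l1, the repressor gene, was at 26.4, 36.0 and 42.7 FPKM in Esrrb-/Tbx3-, Esrrb+/Tbx3- and Esrrb+/Tbx3+ cells, below 2-fold in each comparison.

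The genes whose pattern was most like that of Esrrb were found by the root mean square difference between centred log2(FPKM + 1) profiles over the 5 fractions, among 9636 protein-coding rows with at least 5 FPKM in some fraction. The 5 nearest were Fabp3 (0.09), a fatty acid binding protein gene, Ckb (0.10), a creatine kinase gene, Zfp42 (0.11), a naive pluripotency marker, Mok (0.12), a kinase gene, and Klf4 (0.12). Nr0b1 was at rank 7 (0.13) and Nr5a2 at rank 12 (0.17), while Esrra was at rank 5712 (0.96). Only 17 rows lay within 0.2 of Esrrb, against 5094 within 0.2 of Esrra. This is a description over 5 columns, of which 3 were sorted on Esrrb.

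For Nr0b1 the nearest were 1700061G19Rik (0.07), Pqlc1 (0.08) and Pdgfa (0.08), a growth factor gene, and for Nr5a2 they were Mok (0.07), Pqlc1 (0.10) and Cspg5 (0.13). For Rarg they were Plk3 (0.06), Gm14139 (0.06) and Tubb4b (0.07). The remaining genes moved so little that many rows were close: Larp7, Ppm1f and Rbx1 were nearest to Esrra, Dhx29 and Helz followed 1700123O20Rik for Nr6a1, Timm44, Sf3b2 and Trappc4 were nearest to Nr1h2, and Ddx26b, Smap2 and Mia3 to Nr2c2.

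**Figure D5:**
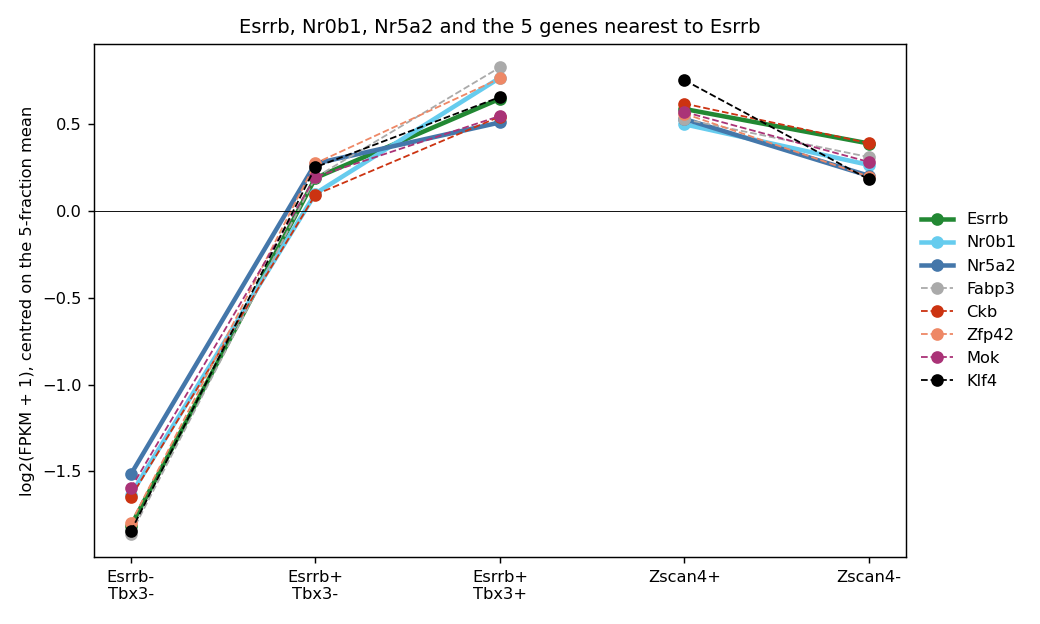
Centred log2(FPKM + 1) (vertical axis) of Esrrb, Nr0b1 and Nr5a2 (solid) and of the 5 protein-coding genes nearest to Esrrb (dashed) in the 5 fractions. All 8 lines are lowest in Esrrb-/Tbx3- cells, between -1.86 and -1.52, and lie above 0 in the other fractions.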

How the data were processed

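RNA of 5 sorted ES cell fractions was sequenced, with 2 libraries per fraction. The authors deposited 1 table of FPKM values with 1 column per fraction, per the file headers, so the libraries of a fraction are merged and replicate spread cannot be measured. The submitters' processing notes list build mm10 and, in no stated role or order, Cuffdiff 2.2.1, Cufflinks, TopHat2 2.0.14 and bcl2fastq 1.8.4. Neither the annotation the authors counted on nor their library normalization is given in the sources used here. FPKM keeps no depth: low values of single-transcript rows were checked for a common step between columns, and no more than 1.39% shared 1 ratio (bins of 0.01 log2), so whole reads were not recovered.

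Differences of log2(FPKM + 1) were computed over the 13595 of 32361 rows that reached 1 FPKM in some fraction, with a size rule of 2-fold and no test. The steps were tested on simulated data. Row starts, which count from 0 in the table, are written from 1. Python 3.11.15, pandas 2.3.3, numpy 2.4.6 and matplotlib 3.10.9 were used. Kinds of gene and promoters came from RefSeq tables (GRCm38.p6), in which all 8 receptor genes matched. Strands, and gene spans where so named, came from the GENCODE M21 reference annotation. Named genes are the 8 members, list genes past 2-fold in a comparison (up to 4 by the rule, and all 6 lower receptors), and the nearest profiles (5 for Esrrb, 3 for the others). Others, such as Rxrg, Crabp1, Scd2, Esrrg and overlapping genes, were picked once their values were known. The members, lists and rules were chosen with earlier results of these data known. From the retinoic acid list 2 genes were left out after their values were known and are not reported here. Alternatives covered the pseudocount, the filter, 3 scalings, summed rows and protein-coding rows.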

Additional observations from a re-analysis of the deposited data

How the results depend on the processing

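No paired analysis was possible because the columns hold merged fractions and carry no replicate number, and for the same reason no library could be left out. Under 9 alternatives in each of 4 comparisons, the numbers of the 8 receptor genes past 2-fold were unchanged in each direction, and no gene of the 8 crossed 2-fold. The difference between Esrrb+/Tbx3- and Esrrb-/Tbx3- cells ran from 1.62 to 1.76 for Nr0b1 and from 1.35 to 1.94 for Nr5a2, and both ends for Nr5a2 came from the pseudocount (5 and 0.1 FPKM). The counts over all rows depended more on it: with 0.1 FPKM, 428 rows were higher and 469 lower in Esrrb+/Tbx3- cells, and with 5 FPKM 119 and 58, in place of 247 and 195. In the Zscan4 sort they were 835 and 280 with 0.1 FPKM and 201 and 43 with 5 FPKM, in place of 470 and 119. In the Tbx3 comparison they were 153 and 1460 with 0.1 FPKM and 29 and 304 with 5 FPKM, in place of 47 and 943. Between Esrrb+/Tbx3+ and Esrrb-/Tbx3- cells they were 770 and 2235 with 0.1 FPKM, in place of 518 and 1656. With 5 FPKM they were 261 and 591. One scaling set equal totals outside 859 rows that were far lower in Esrrb+/Tbx3+, Zscan4+ and Zscan4- than in Esrrb-/Tbx3- cells. The choice of these rows did not use the Esrrb+/Tbx3- level. This scaling moved the median of all rows between Esrrb+/Tbx3+ and Esrrb-/Tbx3- cells to -0.15. Under it Nr6a1 differed by -0.01 and Esrra by -0.14 in that comparison.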

Other observations

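Esrrb+/Tbx3+ and Zscan4- cells come from different reporter lines, and none of the 8 receptor genes reached 2-fold between them. Few rows of any kind did: of 13595, 101 were at least 2-fold higher and 111 lower in Esrrb+/Tbx3+ cells. The largest difference was that of Nr0b1, at 174 FPKM in Esrrb+/Tbx3+ and 122 FPKM in Zscan4- cells (0.50), and 9.55% of rows had a larger absolute difference. Nr5a2 differed by 0.31, Esrrb by 0.26 and Rarg by -0.11, where the median absolute difference over 13595 rows was 0.15. Against the same Zscan4- cells, Esrrb-/Tbx3- cells differed by -2.20 for Esrrb, -1.90 for Nr0b1 and -1.72 for Nr5a2, and by 0.38 for Nr2c2 and -0.44 for Rarg.

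The second annotated start of Esrrb, at 86421644 on chromosome 12, and that of Nr5a2, at 136953630 on chromosome 1, had no AGGTCA in the 250 bases before them. Which start was used cannot be read from 1 FPKM value per gene.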
